A study of Mus musculus with 16 samples.

Results

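Transcripts of 8 genes of the antimicrobial epithelium of the gut were followed: the alpha-defensins Defa17 and Defa24, matrilysin (Mmp7), lysozyme 1 (Lyz1), intelectin 1 (Itln1), angiogenin 4 (Ang4) and the C-type lectins Reg3b and Reg3g. The genes were chosen by name, with earlier results of these data known, and all 8 were found among the 35647 genes of the deposited table. The study colonized germ-free mice, labelled wild-type themselves, for 5 weeks with a single bacterium. That bacterium was the Δchat strain of Bifidobacterium breve, which makes no acetylcholine, or the WT strain. Cells were collected from the lamina propria of ileum and colon on a 40% and 80% Percoll gradient, and their poly-A RNA was sequenced. The 4 groups were ileum of Δchat-colonized mice, ileum of WT-colonized mice, colon of Δchat-colonized mice and colon of WT-colonized mice, with 4 libraries each. All mice carried B. breve, and no group without it was analysed here. The labels used here give neither the age nor the strain of the mice.

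Paneth cells sit at the base of the crypts of the small intestine and fill their granules with antimicrobial proteins. Mouse Paneth cells make a large family of alpha-defensins, which matrilysin cuts into their active form, together with lysozyme 1 and angiogenin 4. Intelectin 1 binds microbial sugars and is made by Paneth and goblet cells. Reg3b and Reg3g are made by enterocytes and Paneth cells in response to bacteria, through MyD88 signals and interleukin-22. The mouse colon normally has no Paneth cells. All of these genes are known from the epithelium, whereas the libraries were labelled as immune cells of the lamina propria. Which cells gave each transcript was not tested.

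The sequences of 2 member pairs bear on what the counts can tell apart. Defa17 and Defa24 share 95.7% of the 282 bases of their coding sequence. Lyz1, the Paneth cell lysozyme, and Lyz2, the lysozyme of macrophages, share 95.1% of 447 aligned coding bases. On GRCm38.p6, an earlier build than the one used for the counts, Defa17 lies at chr8:21655767-21656736 and Defa24 at chr8:21734494-21735471, within the alpha-defensin cluster. Lyz1 lies at chr10:117287795-117292868, next to Lyz2 at chr10:117277541-117282272. The first 60 coding bases of each gene are shown from GENCODE M21 transcripts on GRCm38.p6, with capitals at the bases that differ within a pair.
Defa17: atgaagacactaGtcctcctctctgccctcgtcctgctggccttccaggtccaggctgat
Defa24: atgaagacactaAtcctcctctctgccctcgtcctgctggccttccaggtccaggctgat
Lyz1: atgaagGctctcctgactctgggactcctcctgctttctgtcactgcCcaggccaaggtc
Lyz2: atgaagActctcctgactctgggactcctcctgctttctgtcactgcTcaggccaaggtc
The defensin pair differs at 1 of these bases and the lysozyme pair at 2. Among all transcripts, 93.2% of the 31-base words of Defa17 also occurred in another gene, 92.4% in Defa3. For Defa24 the share was 57.1%, with 46.3% in Defa30, and for Lyz1 it was 34.2%, all of it in Lyz2. For Ang4 it was 13.8%, mostly in its relative Ang5. The share was 9.06% for Mmp7, 3.80% for Itln1, 0.446% for Reg3b and 0.231% for Reg3g. The estimates of Defa17 in particular therefore depend on how Salmon divided reads between near-identical defensins, and single defensins are uncertain.

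The start regions of Lyz1 and Lyz2 are shown because the levels of the 2 genes diverged in the ileum. The RefSeq promoter windows of GRCm38.p6, from 250 bases before to 50 bases after the start of the gene, were identical at 81.9% of 310 aligned columns. Capitals mark bases that differ or stand opposite a gap.
Lyz1 promoter: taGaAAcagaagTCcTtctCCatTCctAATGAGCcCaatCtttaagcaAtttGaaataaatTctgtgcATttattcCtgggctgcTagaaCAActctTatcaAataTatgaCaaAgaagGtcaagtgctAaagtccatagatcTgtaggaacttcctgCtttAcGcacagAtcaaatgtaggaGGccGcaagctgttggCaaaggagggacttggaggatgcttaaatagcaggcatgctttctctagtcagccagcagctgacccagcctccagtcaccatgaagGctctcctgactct
Lyz2 promoter: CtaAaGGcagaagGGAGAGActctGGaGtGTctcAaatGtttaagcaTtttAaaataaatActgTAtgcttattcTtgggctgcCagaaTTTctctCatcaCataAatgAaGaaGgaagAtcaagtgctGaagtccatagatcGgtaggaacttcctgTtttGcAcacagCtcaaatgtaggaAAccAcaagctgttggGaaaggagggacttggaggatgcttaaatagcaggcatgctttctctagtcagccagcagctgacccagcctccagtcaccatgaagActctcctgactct
In both windows the differences lie mostly in the first part, and the bases around the start are nearly the same. The Ang4 window follows, since Ang4 was the member that went furthest from the defensins. Its capitals mark CTTTGT, a form of the site bound by the Wnt effector TCF4, which is known to drive Paneth cell genes.
Ang4 promoter: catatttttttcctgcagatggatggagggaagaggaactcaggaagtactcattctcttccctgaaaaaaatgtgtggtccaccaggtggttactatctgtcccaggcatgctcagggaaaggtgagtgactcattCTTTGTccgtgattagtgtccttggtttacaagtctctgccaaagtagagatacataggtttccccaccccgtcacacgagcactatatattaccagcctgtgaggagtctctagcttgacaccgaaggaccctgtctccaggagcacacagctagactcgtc
CTTTGA and CTTTGT were searched on both strands. The Ang4 match begins 113 bases before the start, and Lyz1 has a CTTTGT on the other strand 140 bases before it. Reg3b, Reg3g and Mmp7 also held a match to at least 1 of them. No match to either was found in the windows of Itln1 and Lyz2. Either motif occurred in 31.2% of 32851 mouse promoter windows, so these matches are only descriptions. Defa17 and Defa24 had no window in the promoter table.

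The libraries held between 15940467 and 23612561 estimated counts. Levels are given as CPM, counts relative to the total of the library, with TMM scaling over all 16 libraries. A count of 3 corresponded to between 0.121 and 0.194 CPM in a library, and lower levels cannot be told from 0 at this depth. Leukocyte markers were present in every library, with the pan-leukocyte gene Ptprc at 601 to 888 CPM in the ileum and 656 to 1278 CPM in the colon. The fibroblast collagen Col3a1 was also abundant in every library, at 257 to 1679 CPM in the ileum and 1192 to 3096 CPM in the colon. The mean log2 CPM of 23 general epithelial genes ran between 1.34 and 4.21 in the ileum. In the colon it ran between 1.23 and 3.47 in 7 libraries and reached 6.70 in Δchat replicate 3. That library stood apart, with the simple-epithelium keratin Krt8 at 1085 CPM against 7.46 to 79.4 CPM in the other 7 colon libraries.

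Alpha-defensin transcripts were abundant in the ileum and largely missing from the colon. Defa24 stood at 235, 40.0, 186 and 467 CPM in ileum of Δchat mice and at 326, 232, 36.1 and 18.4 CPM in ileum of WT mice (replicates 1 to 4). The spread within each strain exceeded 10-fold, and the strains overlapped over most of their range. In the colon, Defa24 stood at 3.71 CPM in Δchat replicate 1 and 20.0 CPM in WT replicate 4. It had no count in the other 6 colon libraries. Defa17 followed the same order, at 80.5, 10.8, 63.3 and 145 CPM in ileum of Δchat mice and 104, 80.5, 11.1 and 5.94 CPM in ileum of WT mice. Again only the same 2 colon libraries held any, with 0.699 CPM in Δchat replicate 1 and 5.77 CPM in WT replicate 4. Summed over the 21 listed alpha-defensins in the table, these 2 included, the ileum held 224 to 2811 CPM in Δchat mice and 95.1 to 1547 CPM in WT mice. Defa2 was in no list and is not in that sum.

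Mmp7, the enzyme that activates the defensins, followed them from library to library at a lower level. It measured 10.9, 3.34, 11.6 and 27.9 CPM in ileum of Δchat mice, against 14.1, 7.99, 1.71 and 1.28 CPM in ileum of WT mice. Its level did not pass 0.262 CPM in colon of Δchat mice or 0.728 CPM in colon of WT mice. Per kilobase of transcript, ileal levels in Δchat mice averaged 12.6 ± 9.67 CPM for Mmp7 and 554 ± 423 CPM for Defa24 (SD, n = 4). In ileum of WT mice the averages were 5.86 ± 5.66 CPM per kilobase for Mmp7 and 365 ± 359 CPM per kilobase for Defa24 (SD, n = 4).

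**Figure D1:**
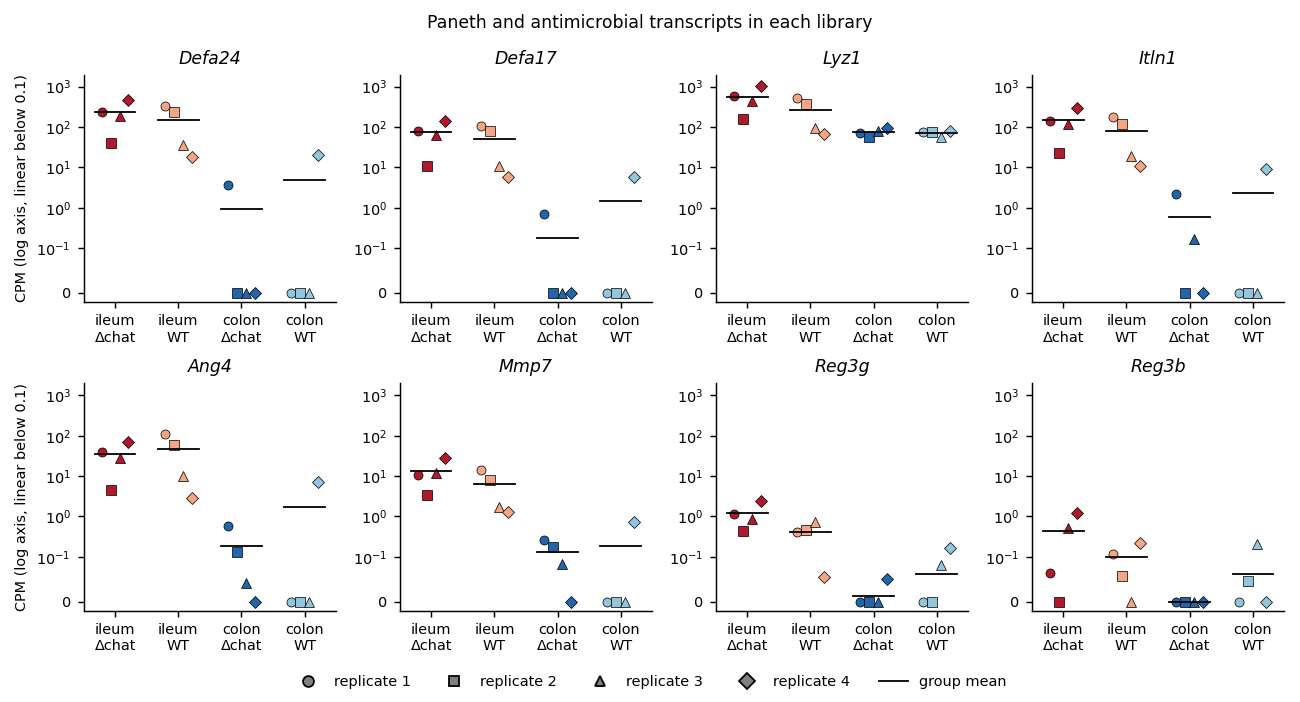
CPM of the 8 members in each library (y axis, logarithmic above 0.1 CPM and linear below it), by tissue and strain (x axis). Symbols are replicates and lines are group means. Ileum WT replicates 3 and 4 and Δchat replicate 2 are the lowest in Defa24, Defa17, Lyz1, Itln1 and Mmp7, while Lyz1 alone stays between 56.4 and 94.9 CPM in every colon library.

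Itln1 stood at 143, 23.3, 121 and 295 CPM in ileum of Δchat mice and at 172, 116, 19.2 and 11.0 CPM in ileum of WT mice. In the colon it reached 2.23 CPM in Δchat replicate 1 and 9.02 CPM in WT replicate 4, and at most 0.169 CPM elsewhere. Ang4, a ribonuclease with bactericidal action, measured 38.9, 4.52, 27.4 and 69.3 CPM in ileum of Δchat mice and 110, 60.4, 10.2 and 2.88 CPM in ileum of WT mice. Ang4 was thus the only member whose highest library, WT replicate 1, came from a WT mouse. In the colon, Ang4 stood at 0.568 CPM in Δchat replicate 1 and 7.001 CPM in WT replicate 4.

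Lyz1 had the highest CPM of the members in every library but behaved differently in the 2 tissues. In the ileum it had 588, 155, 438 and 1012 CPM in Δchat mice and 511, 376, 95.7 and 66.6 CPM in WT mice, in nearly the same order as Itln1. In the colon it held a narrow range, with 71.1, 56.5, 80.5 and 94.9 CPM in Δchat mice and 74.1, 73.9, 56.4 and 80.9 CPM in WT mice. The 6 colon libraries without Defa24 counts held 56.4 to 94.9 CPM of Lyz1, and the 2 with Defa24 held 71.1 and 80.9 CPM. The lowest ileal level, in WT replicate 4, lay inside the colonic range. Lyz2, which shares 34.2% of the 31-base words of Lyz1, stood between 517 and 1598 CPM in all 16 libraries. Lyz1 came to between 8.61 and 181% of Lyz2 in the ileum and to between 7.46 and 15.0% in the colon. How many of the colonic Lyz1 counts were reads of Lyz2 was not tested.

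**Figure D2:**
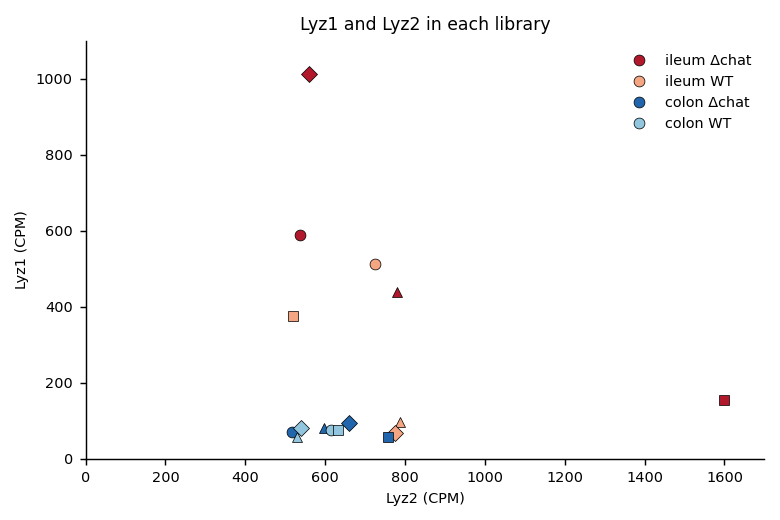
Lyz1 (y axis, CPM) against Lyz2 (x axis, CPM), 1 point for each of the 16 libraries, coloured by group. The 8 colon libraries lie together at 56.4 to 94.9 CPM of Lyz1, whereas ileum libraries run to 1012 CPM of Lyz1 without more Lyz2.

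The bacteria-responsive lectins were close to the limit of detection. Reg3g measured 1.16, 0.431, 0.875 and 2.39 CPM in ileum of Δchat mice, against 0.421, 0.454, 0.720 and 0.0555 CPM in ileum of WT mice. In the colon it had 1 count in 4 Δchat libraries together and 5 counts in 4 WT libraries. Reg3b, its close relative, reached 1.20 CPM in ileum of Δchat mice and 0.222 CPM in ileum of WT mice. The colon gave no Reg3b count in Δchat mice and 6 counts over the WT libraries. With so few counts Reg3b did not pass the expression filter. Without a filter it was tested and not called in any comparison. Per kilobase of transcript, Reg3g averaged 1.58 ± 1.09 CPM in ileum of Δchat mice and 0.535 ± 0.354 CPM in ileum of WT mice (SD, n = 4 each), far below the same measure of Defa24.

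The ileum stood above the colon for every member tested. The question was how far the members mark the ileal origin of a library. In Δchat mice 7 of 7 members tested were called higher in ileum, where 13.3% of 15198 genes were called in either direction (edgeR quasi-likelihood test over 16 libraries, Benjamini-Hochberg adjusted p under 0.05). In WT mice 7 of 7 were called higher, against 28.8% of all genes in either direction. Genes called higher in ileum numbered 1263 of 15198 in Δchat mice and 2079 of 15198 in WT mice. In a fit of the colon libraries alone only 1 member, Lyz1, passed the expression filter. The other members tested entered through their ileum counts, so their direction was largely fixed beforehand and the calls do not test it. The median log2 fold change of the 7 was 7.48 in Δchat mice and 4.95 in WT mice, against -0.02 and -0.04 for all genes tested.

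Among the defensins, Defa17 differed by a log2 fold change of 8.66 ± 1.79 (SE, adjusted p = 0.00673, edgeR) in Δchat mice and 5.20 ± 1.42 (adjusted p = 0.0162) in WT mice. Defa24 differed by 7.93 ± 2.02 (SE, adjusted p = 0.0195, edgeR) in Δchat mice and 4.95 ± 1.72 (adjusted p = 0.0452) in WT mice. Both passed the filter through their ileum counts, so these adjusted p do not test the direction. For genes at or near 0 in most colon libraries, the size of these fitted values depends on the prior count and on single colon libraries. Without colon Δchat replicate 1 the log2 fold changes in Δchat mice were 13.57 for Defa17 and 15.20 for Defa24. Without colon WT replicate 4 they were 13.02 for Defa17, 14.63 for Defa24, 13.68 for Itln1, 12.89 for Ang4 and 10.01 for Mmp7 in WT mice, so the order of the strains is not read from these sizes. Lyz1, with counts in every library, was 7.24-fold higher in ileum of Δchat mice (log2 2.86 ± 0.63, adjusted p = 0.00909, edgeR) and 3.63-fold higher in ileum of WT mice (log2 1.86 ± 0.60, adjusted p = 0.0340). Itln1, Ang4 and Mmp7 had log2 fold changes of 7.88, 7.48 and 6.59 in Δchat mice and of 5.19, 4.76 and 5.19 in WT mice. Reg3g gave 102 counts in ileum and 1 count in colon of Δchat mice, a ratio of 113 (exact 95% counting interval 19.9 to 4518). In WT mice the counts were 32 and 5, a ratio of 7.17 (2.77 to 23.6). These intervals cover counting error only.

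With limma-voom and quality weights, 2 of 7 members (Lyz1 and Reg3g) were called in Δchat mice and 1 (Reg3g) in WT mice, and DESeq2 called 7 and 4. Of all 15198 genes, limma-voom called 1951 in Δchat mice and 5634 in WT mice in either direction. DESeq2 called 2769 and 4961 of them. In Δchat mice 6 of 7, all but Defa24, were called without colon Δchat replicate 2, 3 or 4. In WT mice fewer members were called when 1 of several libraries was left out. Of the 7, only Defa17 and Mmp7 were called without ileum WT replicate 1 or without colon WT replicate 1, and Defa17, Mmp7 and Itln1 without ileum WT replicate 2, colon WT replicate 2 or colon WT replicate 3. With the mouse as a block in a paired fit, 3 of 7 were called in WT mice (Defa17, Itln1 and Mmp7) and 7 of 7 in Δchat mice. That fit called 3900 of all 15198 genes in WT mice and 1875 in Δchat mice. When a library was left out, calls over all genes ran from 2606 to 4160 in WT mice and from 1315 to 2177 in Δchat mice.

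**Figure D3:**
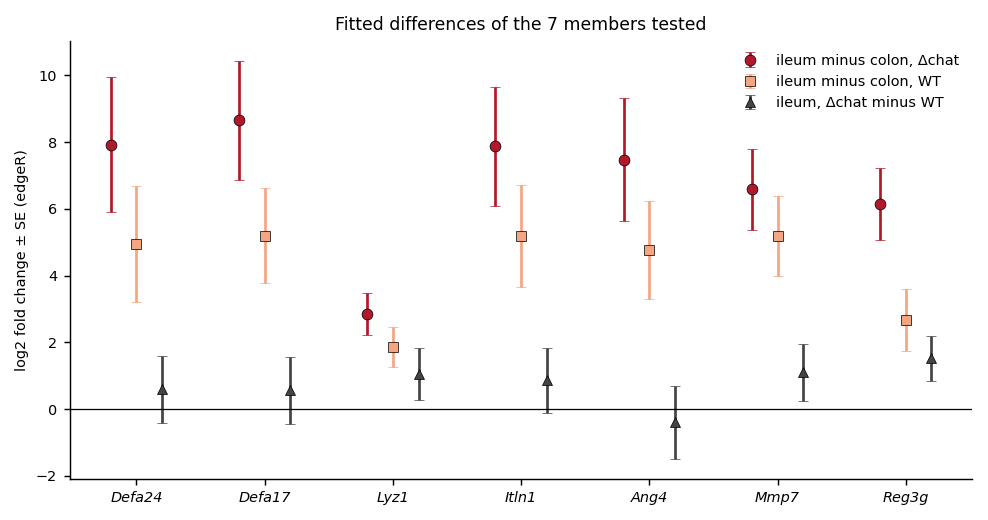
Log2 fold change ± SE (y axis, edgeR) of the 7 members tested (x axis), for ileum minus colon in Δchat mice, ileum minus colon in WT mice and Δchat minus WT in ileum. All 14 tissue differences lie above 0, between 1.86 and 8.66, while the strain differences in ileum lie between -0.40 and 1.52 with standard errors of 0.68 to 1.09. All members but Lyz1 entered the tissue fits through their ileum counts, so the direction of their tissue differences was largely fixed beforehand.

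Other Paneth cell genes followed the members. Of 34 listed, 21 were tested, and in Δchat mice 19 were called higher and 1 lower in ileum. In WT mice 18 were higher and 1 lower. Of this list only 1 gene passed the filter in the colon libraries alone, so here too the direction was largely fixed beforehand. The gene that fell in both strains was Mptx1, a mucosal pentraxin, by a log2 fold change of -11.77 ± 1.77 (SE) in Δchat mice and -4.69 ± 1.23 in WT mice. It had at most 0.962 CPM in any ileum library, against 212 CPM in the colon library rich in epithelium. Its relative Mptx2 went the other way, higher in ileum by 8.78 ± 2.19 in Δchat mice and 8.36 ± 1.89 in WT mice (adjusted p = 0.0223 and 0.00875, edgeR). Without colon Δchat replicate 3, the library rich in epithelium, Mptx1 was still called in Δchat mice, at -9.80 ± 1.19, whereas Mptx2 was not (8.76 ± 2.60, adjusted p = 0.0523, edgeR). Defa20, Defa22, Defa21 and Defa33 had the highest CPM of the list, and each was called higher in ileum of both strains. Olfm4, a gene of crypt base stem cells, was also higher in ileum, by 7.07 ± 1.61 in Δchat mice and 5.38 ± 1.51 in WT mice (adjusted p = 0.0109 and 0.0182, edgeR).

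General epithelial genes gave few calls. None of 23 tested was called higher in ileum of Δchat mice and 2 were lower (Krt20 and Phgr1, both of surface cells). At an unadjusted p under 0.05 there were 10, and DESeq2 called 4 and limma-voom 2. In WT mice 1 was higher (Cdx2, an intestinal transcription factor) and none was lower. The median log2 fold change of the 23 was -1.85 in Δchat mice and 0.02 in WT mice. The values in Δchat mice rested on colon replicate 3. Without it the median was -0.04, neither Krt20 nor Phgr1 was called, and Spint2 and Tspan8 were called higher in ileum. Of the other antimicrobial genes of the epithelium, 3 of 10 were called lower in ileum of Δchat mice and none higher. These were Sprr2a2, Lypd8, which keeps flagellated bacteria from the colonic surface, and Dmbt1. They reached 941, 1078 and 378 CPM in the colon library rich in epithelium. Without that library Sprr2a2 was still called, at -4.87 ± 0.59 (SE), but Lypd8 and Dmbt1 were not, at -2.27 ± 0.73 and -2.18 ± 0.69 (adjusted p = 0.0629 and 0.0593, edgeR). In WT mice Nos2 alone was called, higher in ileum by 0.72 ± 0.25.

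Several transcripts that mark absorptive cells of the ileum were low in the same libraries, but not all of the list was. The bile acid binding protein Fabp6 stood between 0.315 and 1.44 CPM in the 8 ileum libraries, and sucrase-isomaltase (Sis) between 0.0900 and 1.75 CPM. The fatty acid binding protein Fabp1 did not pass 0.162 CPM in any library. Its relative Fabp2 stood between 0.360 and 3.75 CPM in the ileum, Apob between 0.108 and 2.82 CPM and Mttp between 2.61 and 3.97 CPM. Of 14 listed enterocyte genes tested, Fabp6 and Sis alone were called higher in ileum than in colon, in both strains. Enpep and Mme were called lower in both strains and Mep1a in Δchat mice, and the median log2 fold change was -0.08 in Δchat mice and -0.11 in WT mice. The goblet cell mucin Muc2 stood between 1.78 and 39.1 CPM in the ileum. The other listed enterocyte genes with the highest CPM, Anpep and Dpp4, stood at 50.4 to 114 CPM and 45.2 to 62.0 CPM in the ileum, but leukocytes and stromal cells also make them. Enpep and Slc5a1 came next in the list, averaging 10.1 and 5.2 CPM over the 16 libraries.

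Set against the general epithelial level, the members formed separate courses in the 2 tissues. In log2 CPM, Defa24 stood above the mean of the 23 epithelial genes by 4.32 ± 0.29 in ileum of Δchat mice and 3.95 ± 0.95 in ileum of WT mice (SD, n = 4 each). Lyz1 stood above it by 5.73 ± 0.17 and 5.10 ± 0.37 log2 units in the same groups, and Itln1 by 3.62 ± 0.34 and 3.06 ± 0.85. Ang4 stood above it by 1.51 ± 0.45 in Δchat mice and 1.97 ± 1.34 in WT mice. The 8 ileum libraries fell into 3 with an epithelial mean of 1.34 to 1.71 and 5 with 3.13 to 4.21, and all 3 of the first had less Defa24, Itln1 and Lyz1 than any of the 5. Each set held fewer than 6 libraries, so no correlation is given.

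**Figure D4:**
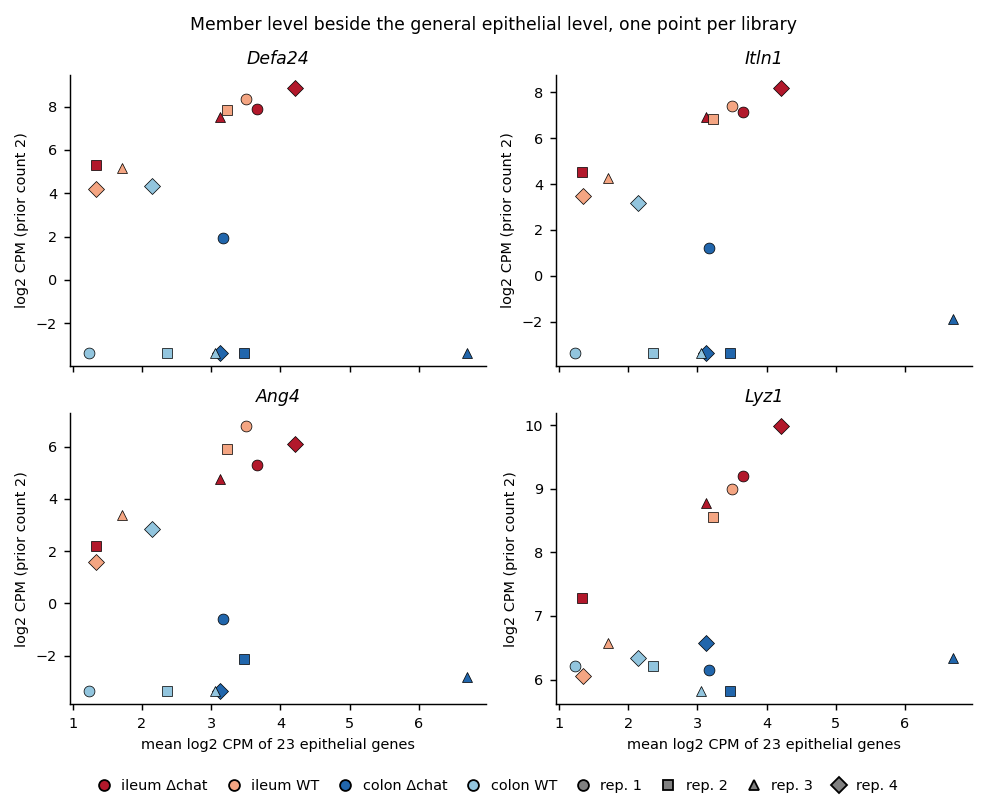
Log2 CPM of Defa24, Itln1, Ang4 and Lyz1 (y axes, prior count 2) against the mean log2 CPM of 23 epithelial genes (x axes), 1 point per library. Ileum libraries climb together, from epithelial means of 1.34 to 4.21, while the colon library at 6.70 holds no Defa24 count.

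In the colon the epithelial level and the Paneth transcripts did not go together. Δchat replicate 3, with the most epithelial RNA of all libraries, had no Defa24 or Defa17 count and 0.169 CPM of Itln1. WT replicate 4 had an epithelial mean of 2.14, within the range of the other colon libraries, and the most Defa24, Defa17, Itln1, Ang4 and Mmp7 of the colon. Its Defa24 level of 20.0 CPM was above the 18.4 CPM in the ileum of WT replicate 4, taken as the same mouse. Its Olfm4 level was 5.38 CPM, and that of Δchat replicate 1, the other colon library with defensins, was 3.41 CPM, whereas the remaining 6 had at most 0.200 CPM. In proportion to the 19 listed alpha-defensins other than Defa17 and Defa24, Itln1 came to 15.0% in colon WT replicate 4 and 16.7% in colon Δchat replicate 1, close to its 13.4 to 15.6% in the ileum libraries. Other genes lay farther off. In the same order Lyz1 came to 135 and 534%, against 45.8 to 94.1% in the ileum, and Defa32 to 2.24 and 3.28%, against 5.66 to 12.6%. Ang4 (11.7%) and Defa24 (33.3%) lay above their ileal ranges in WT replicate 4 and within them in Δchat replicate 1. The origin of these transcripts was not tested.

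Between the strains no member was called. In ileum, 0 of 7 members tested passed, against 0.0207% of 14496 genes (edgeR over 8 libraries). None of the 7 had an unadjusted p under 0.05, and neither DESeq2 nor limma-voom called any. The log2 fold change of Δchat minus WT was 1.05 ± 0.77 (SE) for Lyz1, 1.10 ± 0.86 for Mmp7, 0.86 ± 0.98 for Itln1, 0.59 ± 0.99 for Defa24 and 0.56 ± 1.01 for Defa17. For Ang4 it was -0.40 ± 1.09, the only one below 0. Reg3g had the smallest p of the members, with 1.52 ± 0.68 and an adjusted p of 0.464. The median over the 7 was 0.86, beside 0.02 over all genes tested. Before adjustment the p of Reg3g was 0.0523 (edgeR), and no member was called after adjustment over all genes tested. The missing calls do not measure how these differences compare with the spread between mice.

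Epithelial markers moved with these values. Of the 23 general epithelial genes, 21 had log2 fold changes above 0 in ileum, with a median of 0.78, and their summed level ran from 174 to 665 CPM in Δchat mice and from 181 to 451 CPM in WT mice. No gene of the 23 was called by edgeR, 1 had an unadjusted p under 0.05, and DESeq2 called 1. With the mean of the 23 as a covariate, no member was called, and the log2 fold change was 0.55 for Lyz1 (adjusted p = 0.329, edgeR) and -1.05 for Ang4 (adjusted p = 0.332). In bulk libraries fewer Paneth cells and less RNA per cell cannot be told apart.

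In colon only Lyz1 had enough counts for a test. It differed between Δchat and WT mice by a log2 fold change of 0.09 ± 0.17 (SE, adjusted p = 0.835, edgeR over 8 libraries), with averages of 75.7 ± 16.1 CPM in Δchat mice and 71.3 ± 10.5 CPM in WT mice (SD, n = 4 each). So 0 of 1 was called, against 0.00682% of 14660 genes. DESeq2 and limma-voom did not call it either. All 22 general epithelial genes tested in colon had log2 fold changes above 0, with a median of 2.88. Of these, 20 had an unadjusted p under 0.05 and none was called by edgeR, DESeq2 or limma-voom. Without colon Δchat replicate 3 the median was 0.89, with 21 of 22 above 0. With their mean as a covariate the Lyz1 difference was 0.11 ± 0.23 (SE, adjusted p = 0.907, edgeR). The difference of the strain effect between ileum and colon passed for 0 of 7 members and for 0.0592% of 15198 genes. By DESeq2 and limma-voom it passed for none. Reg3g alone fell under 0.05 in that test before adjustment (adjusted p = 0.637, edgeR), on 1 count in colon of Δchat mice.

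Relative to the defensins, Ang4 was lower in ileum of Δchat mice. As a percentage of the summed CPM of the 19 listed alpha-defensins other than Defa17 and Defa24, Ang4 came to 3.88, 2.61, 3.14 and 3.15% in Δchat mice and to 9.86, 7.61, 7.89 and 4.08% in WT mice, without overlap. Of 14496 genes tested in ileum, 0.545% had no overlap between strains on this scale. The sum itself ran from 173 to 2200 CPM in Δchat mice and from 70.8 to 1117 CPM in WT mice. A gene that does not follow the sum overlaps on this scale almost by necessity. The share is therefore no chance rate for genes that do follow it. Defa24 came to 22.3 ± 1.15% in Δchat mice and 28.1 ± 1.54% in WT mice (SD, n = 4 each). Defa17 averaged 7.02 ± 0.80% in Δchat mice and 9.10 ± 0.81% in WT mice, and Itln1 13.7 ± 0.40% and 15.1 ± 0.49% in the same order. None of these 3 overlapped between strains either. As given above, Defa17 shares sequence with Defa3 and Defa24 with Defa30, and both of these genes are part of the sum. The percentages of Defa17 and Defa24 therefore depend on how Salmon divided reads between such genes, which was not tested. With Defa2 added to the sum, a change made after the data were seen, Ang4 averaged 2.73 ± 0.45% in Δchat mice and 6.17 ± 1.99% in WT mice (SD, n = 4 each), and Ang4, Defa24 and Defa17 had no overlap, beside 0.517% of all genes tested. Itln1 then overlapped, at 11.4 to 12.2% in Δchat mice and 12.1 to 13.4% in WT mice. Mmp7 averaged 1.403 ± 0.365% in Δchat mice and 1.348 ± 0.332% in WT mice, with overlapping ranges, and the ranges of Lyz1 overlapped as well.

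A further fit took as a covariate the mean log2 CPM of the 19 listed alpha-defensins other than Defa17 and Defa24. Listed defensins without counts were included in that mean. Added after these percentages were seen, the fit puts the same relation into a model and is no separate evidence. Ang4 had a log2 fold change of -1.41 ± 0.15 (SE, adjusted p = 0.0425, edgeR), which is 2.65-fold lower in Δchat mice. It was 1 of 7 genes called, or 0.0483% of 14496, and the only member. The change lay between -1.48 and -1.27 when each ileum library was left out in turn, but the call held only without Δchat replicate 3 or WT replicate 4. Without any of the other 6 libraries the adjusted p ran from 0.0911 to 0.190. DESeq2 and limma-voom called Ang4 with the same covariate, at adjusted p of 3.6e-11 and 0.0475. The other 6 members were not called, with log2 fold changes between -0.45 (Defa17) and 0.80 (Reg3g).

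Of the other Paneth genes, Mptx2 was called with the covariate, at -2.58 ± 0.28 (SE, adjusted p = 0.0425, edgeR). It came to 0.303, 0.0933, 0.156 and 0.276% of the 19 defensins in Δchat mice and to 1.25, 1.16, 0.730 and 0.157% in WT mice, where replicate 4 fell among the Δchat values. Like Ang4, it was called without Δchat replicate 3 or WT replicate 4 and not without any of the other 6 (adjusted p from 0.0810 to 0.204). Pnliprp2, a pancreatic-type lipase, and Defa32 were looked at after their values were seen. Pnliprp2 averaged 1.39 ± 0.09% in Δchat mice and 2.76 ± 0.80% in WT mice. Defa32 went the other way, at 11.2 ± 0.99% in Δchat mice and 7.004 ± 2.043% in WT mice. Neither overlapped between strains, beside the 0.545% of all genes given above, and both averages are over 4 libraries with SD. Defa32 is itself 1 of the 19 in the sum.

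**Figure D5:**
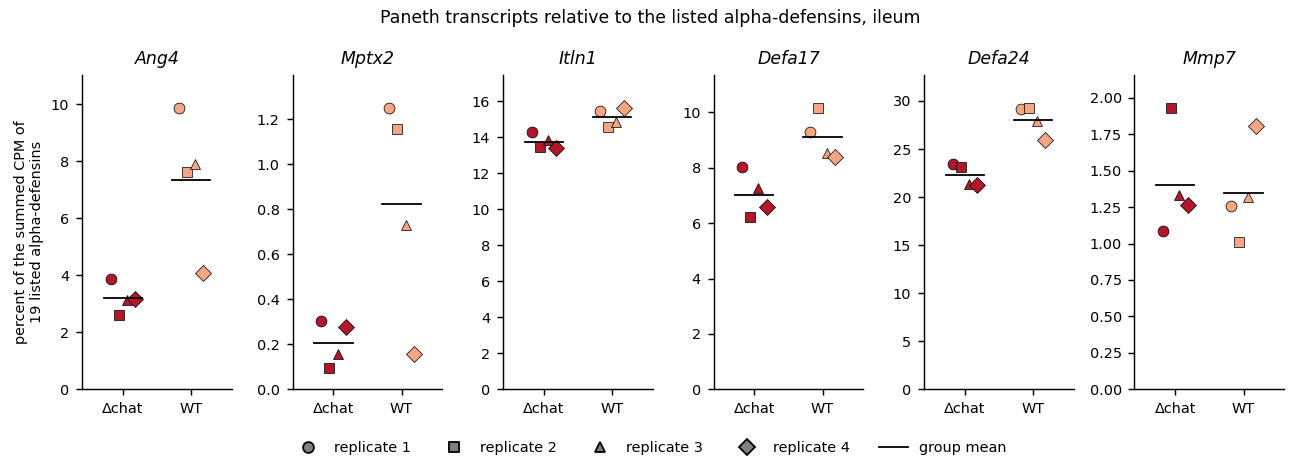
Level of 6 Paneth genes in ileum libraries as a percentage of the summed CPM of the 19 listed alpha-defensins other than Defa17 and Defa24 (y axes from 0), in Δchat and WT mice (x axis). Symbols are replicates and lines are group means. Ang4 lies between 2.61 and 3.88% in Δchat mice and between 4.08 and 9.86% in WT mice, while Mmp7 overlaps.

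Genes that signal to the antimicrobial epithelium were compared as a list of 29, of which 27 were tested. Between strains edgeR called none in ileum, where 8 had an unadjusted p under 0.05, DESeq2 called 6 and limma-voom 4. Of all 14496 genes tested there, 1581 had an unadjusted p under 0.05 by edgeR, DESeq2 called 375 and limma-voom 135. In colon edgeR, DESeq2 and limma-voom called none, and 7 had an unadjusted p under 0.05, beside 1951 of 14660 genes tested there. Between tissues, 4 were higher in ileum of Δchat mice and 11 in ileum of WT mice, and none was lower. Over all genes tested, 13.3% were called in Δchat mice and 28.8% in WT mice, in either direction. The 4 of 27 in Δchat mice thus lay close to the share over all genes. Il22, the cytokine that induces the Reg3 lectins, was higher in ileum of Δchat mice by 1.14 ± 0.35 (SE, adjusted p = 0.0455, edgeR), and was not called without colon Δchat replicate 3 (adjusted p = 0.0824). It stood at 11.7, 4.74, 7.88 and 4.57 CPM in ileum of Δchat mice and 3.67, 2.07, 3.26 and 4.11 CPM in their colon. Il17a had the largest change of the list in WT mice, 3.54 ± 0.46 higher in ileum (SE, adjusted p = 0.000219, edgeR).

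The genes most like the members over the 8 ileum libraries included 6 named alpha-defensins. By Pearson's r of log2 CPM with the mean of the 8 members, among 11358 genes of at least 5 CPM in ileum, the first 8 were Defa22 (r = 0.996), Muc13, Defa5, Gm15293, Defa33, Defa20, Defa21 and Defa2 (r = 0.993). The points share the split of the libraries into 3 low and 5 high, so r is only a description. Muc13 is a transmembrane mucin of the whole epithelium. It averaged 15.5 ± 10.3 CPM in ileum of Δchat mice and 9.33 ± 7.24 CPM in ileum of WT mice, against 124 ± 194 CPM in colon of Δchat mice and 13.3 ± 10.1 CPM in colon of WT mice (SD, n = 4 each). The defensins among the 8 averaged at most 2.74 CPM in either group of colon libraries.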

How the data were processed

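RNA of lamina propria cells was measured in 16 libraries, 4 in each group of tissue and strain. The authors deposited estimated counts per gene, and the submitters' processing notes name cutadapt 5.0, Salmon 1.4.0 and the build GRCm39. The estimated counts were rounded to whole numbers here. Between 34.8 and 40.7% of a library's values were not whole. Genes without a symbol took 0.0853 to 0.105% of the counts. Libraries were grouped by their titles, and none was a copy of another.

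The analysis used edgeR 4.0.16 on R 4.3.3, with filterByExpr, TMM, robust quasi-likelihood fits and 2-sided tests, adjusted by Benjamini-Hochberg over all genes and called under 0.05. Strains were compared over 8 libraries of a tissue, and tissues over all 16. Alternatives used DESeq2 1.42.0, limma 3.58.1, other filters and scalings, score covariates, blocks and left-out libraries. The SE given with edgeR values was back-calculated, as the absolute log2 fold change divided by the square root of the F statistic. Log2 CPM had a prior count of 2. The tests were tried on simulated counts.

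The members and lists were chosen with earlier results of these data known. Named genes were all members, the 4 most abundant of each list, list genes called in a comparison, and the 8 genes most like the members among those of at least 5 CPM in ileum. Ileum and colon libraries of the same strain and number were taken as the same mouse from the library names and the statement of 4 mice per group. Their deviations from group means correlated by -0.18 to 0.27. Numbers do not pair mice across strains. The sequences come from an earlier build than the authors used and were used for comparison only. The tables used here pair no protein with the members.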

Additional observations from a re-analysis of the deposited data

Results flagged for a closer look

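In groups of 4 libraries, 40 sets of values were looked through for a library far from the other 3, and 10 were found. For continuous values chance gives such a gap in about 1 set of 20, a rate that does not apply where 3 libraries are at 0 and any count stands apart. In 5 of them the library was colon WT replicate 4 against 3 libraries at 0: Itln1 at 9.02 CPM, Ang4 at 7.001 CPM, Defa17 at 5.77 CPM, Defa24 at 20.0 CPM and Mmp7 at 0.728 CPM. In colon of Δchat mice, replicate 1 stood apart with Itln1 at 2.23 CPM, Defa17 at 0.699 CPM and Defa24 at 3.71 CPM. Reg3g in colon Δchat replicate 4 was at 0.0501 CPM, which is a single count against none in the other 3 libraries. The mean log2 CPM of 23 epithelial genes was 6.70 in colon Δchat replicate 3, against 3.13 to 3.47 in the other 3 libraries of its group.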

How the results depend on the processing

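Between strains, and for the interaction of strain and tissue, no member was called under any setting tried except with the alpha-defensin covariate added after the data were seen, which called 1 member in ileum. In Δchat mice, 2 members were called higher in ileum than in colon with limma-voom, and 6 or 7 when a library was left out. In WT mice, where 7 were called, 3 were called with no filter on low counts, 4 with DESeq2, 1 with limma-voom, 4 with the epithelial covariate, 3 with the mouse as a block, and between 2 and 7 when a library was left out. The cause was not tested. In ileum the strain difference of Ang4 was 1.04 (log2) with limma-voom, 0.020 with the replicate number as a block, and -0.98 to 0.51 when a library was left out. Defa17 was at -0.082 with the epithelial covariate. With the defensin covariate Itln1, Defa17 and Defa24 were at -0.14, -0.45 and -0.35. Defa24 lay between -0.0087 and 1.27 when a library was left out, and Lyz1 in colon between -0.038 and 0.21. The difference of strain effects turned negative without colon WT replicate 4, with ranges of -5.80 to 5.91 for Itln1, -5.41 to 4.28 for Ang4, -3.42 to 2.15 for Mmp7, -4.36 to 8.37 for Defa17 and -6.69 to 10.26 for Defa24, and Ang4 was at -0.62 with limma-voom. Over all genes, the strain comparison in ileum called 3 genes and 0 to 375 under other settings, and that in colon called 1 and 0 to 308, with both maxima from DESeq2. The tissue comparison called 2028 genes in Δchat mice and 1315 to 2769 under other settings. In WT mice it called 4380, and 2606 to 5634 under other settings. Of the 21 other Paneth genes limma-voom called 3 between tissues in Δchat mice and 2 in WT mice, against 20 and 19 by edgeR. The block on replicate number changed no call of a member between strains. Members near 0 are limited by depth.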
